A study of Mus musculus with 8 samples.

Results

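The 9 genes described here are *Atf4* and 8 genes that belong to the integrated stress response it directs, *Ddit3*, *Trib3*, *Ddit4*, *Sesn2*, *Asns*, *Psat1*, *Chac1* and *Herpud1*. They were chosen by symbol from the 37310 genes of the count table, each symbol matched a single row, and all 9 passed the filter on low counts that left 13028 genes for testing. RNA was sequenced from NMuMG cells, a mouse mammary epithelial cell line that responds to TGF-β with an epithelial to mesenchymal transition, to ask how the long noncoding RNA *Lnc-Nr6a1* takes part in that response. The 8 libraries fall into 4 groups of 2 biological replicates: control cells without treatment, control cells after 2 h with 10 ng/ml TGF-β1, *Lnc-Nr6a1* knockout (KO) cells without treatment, and KO cells after the same 2 h of TGF-β1. The KO cells carry a CRISPR-Cas9 deletion that removes the *Lnc-Nr6a1* promoter with part of its first exon, and were grown from single sorted cells, so that an effect of genotype and one of the clone cannot be told apart. How many clones the KO libraries stand for, and whether untreated cells received the TGF-β diluent, is not given in the sources used here. All groups were grown in the same medium with serum and insulin.

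The libraries held 4297832 to 13574397 counts. *Lnc-Nr6a1* itself (annotated as *Gm13507*) had 3 and 14 counts in untreated control, 11 and 7 in untreated KO, 25 and 35 in treated control and 0 and 0 in treated KO libraries. The targeted gene therefore separated the genotypes only after TGF-β, and its low counts do not check the labels of the untreated libraries. Of 10 epithelial markers, *Cdh1*, *Krt8*, *Krt18*, *Krt19* and *Ocln* were present in every library, whereas *Cldn3*, *Cldn7* and *Esrp1* had no count in any and *Epcam* had 2 counts in a single treated control library. The remaining marker, *Cldn4*, moved with treatment, with 1 and 0 counts in untreated control and 0 and 0 in untreated KO libraries, against 126 and 13 in treated control and 30 and 162 in treated KO libraries. The summed level of the epithelial list was 5910 to 5990 CPM (counts scaled to library size with TMM factors) in untreated control, 8070 to 11000 in treated control, 6680 to 7010 in untreated KO and 7980 to 10400 in treated KO libraries. The fibroblast list summed to 0.797 to 4.73 CPM with *Lum* and *Thy1* at 0 in all libraries, and the endothelial list to at most 0.847 CPM with *Kdr* at 0. An immune list summed to 99.6 to 184 CPM, nearly all of it *Cd14*, while *Ptprc* had 0 to 2 counts in a library. The part of these marker levels in the results on the stress response genes was not tested. In bulk RNA, fewer cells that express a gene and less of its RNA per cell cannot be told apart.

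In the integrated stress response, 4 kinases that sense amino acid shortage, unfolded protein in the endoplasmic reticulum (ER), haem shortage or double-stranded RNA phosphorylate the initiation factor eIF2α. Translation then falls in general, while the messenger RNA (mRNA) of *Atf4* is translated more through upstream reading frames in its leader. ATF4 protein, a bZIP transcription factor, activates genes for amino acid import and synthesis, for restraint of mTORC1 and for its own feedback. The level of *Atf4* mRNA is for this reason an incomplete measure of ATF4 activity, and neither ATF4 protein nor eIF2α phosphorylation was measured in these libraries.

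ATF4 binds C/EBP-ATF response elements (CARE). The letters TGATGNAA, searched on both strands, stand for the core of this element here, and they occurred in 1304 of 32851 promoter windows from 250 bases before to 50 bases after an annotated start (3.97%; RefSeq, GRCm38.p6). All 9 genes had a window, *Psat1* 2 of them, and 4 windows held the letters, those of *Asns*, *Chac1*, *Trib3* and *Herpud1*. The matches are shown because these letters are the textbook link between ATF4 and its targets. Each is printed 5′ to 3′ along the gene's strand with the match in capitals, and in *Chac1*, *Herpud1* and *Trib3* the match lies on the opposite strand and appears as its reverse complement.
*Asns*, chr6:7693214-7693243, minus strand: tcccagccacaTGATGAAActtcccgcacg
*Chac1*, chr2:119351038-119351067, plus strand: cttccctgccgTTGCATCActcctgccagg
*Herpud1*, chr8:94386306-94386335, plus strand: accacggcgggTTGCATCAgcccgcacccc
*Trib3*, chr2:152344028-152344057, minus strand: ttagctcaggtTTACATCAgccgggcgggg
Counted from the start site, the match covered positions -23 to -16 in *Asns*, -193 to -186 in *Chac1*, -112 to -105 in *Herpud1* and 15 to 22 in *Trib3*.

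*Herpud1*, an ER stress gene, was also the only one of the 9 whose windows held the ER stress element ERSE-II (ATTGG, then any base, then CCACG, on either strand, in 12 of all windows or 0.0365%). None held the longer element ERSE (CCAAT, then 9 bases of any kind, then CCACG, in 39 windows or 0.119%). The 250 bases before the start are printed for *Ddit4* and *Sesn2*, the genes called in the response to TGF-β, and for *Herpud1*, which held both elements, with its matches of CARE and ERSE-II in capitals.
*Ddit4*, chr10:59951771-59952020, minus strand: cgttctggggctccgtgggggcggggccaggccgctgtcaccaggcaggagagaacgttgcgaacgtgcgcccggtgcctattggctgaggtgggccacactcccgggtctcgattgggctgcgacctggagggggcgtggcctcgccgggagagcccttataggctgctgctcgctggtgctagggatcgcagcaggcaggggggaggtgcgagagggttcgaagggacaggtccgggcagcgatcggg
*Sesn2*, chr4:132510457-132510706, minus strand: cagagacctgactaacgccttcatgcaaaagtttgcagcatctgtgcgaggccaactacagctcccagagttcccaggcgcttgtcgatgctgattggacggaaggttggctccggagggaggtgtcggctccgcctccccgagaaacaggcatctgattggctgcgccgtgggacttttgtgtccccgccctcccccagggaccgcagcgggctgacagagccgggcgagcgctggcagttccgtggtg
*Herpud1*, chr8:94386179-94386428, plus strand: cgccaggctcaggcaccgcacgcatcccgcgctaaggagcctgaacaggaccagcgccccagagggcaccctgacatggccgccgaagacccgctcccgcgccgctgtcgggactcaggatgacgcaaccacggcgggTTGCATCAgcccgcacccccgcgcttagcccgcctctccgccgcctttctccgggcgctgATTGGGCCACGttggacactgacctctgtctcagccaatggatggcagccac
In *Ddit4* and *Sesn2* none of the 3 letter strings was in the window, which says only that these letters are not there. A match is a description of the sequence and not a measured binding site.

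Per kilobase of exon (RPKM, CPM divided by the merged exon length), *Atf4* was the most abundant of the 9 in untreated control cells, at 255 RPKM, followed by *Psat1* at 131, *Asns* at 80.3, *Herpud1* at 50.2 and *Ddit4* at 25.3 RPKM. *Chac1* at 14.5, *Ddit3* at 13.2 and *Sesn2* at 11.2 RPKM came next, and *Trib3* was lowest at 6.91 RPKM (means, n = 2). The libraries of *Ddit3* overlapped those of *Chac1* and those of *Sesn2*, whereas both *Chac1* libraries were above both *Sesn2* libraries. After TGF-β, *Ddit4* reached 80.4 RPKM in control and 141 RPKM in KO cells. All other levels below are in CPM, which compares libraries and not genes. Fold changes and adjusted p-values are from edgeR's quasi-likelihood test across all tested genes, and a gene was called when its adjusted p was below 0.05 and its absolute log2 fold change above 0.5.

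**Figure D1:**
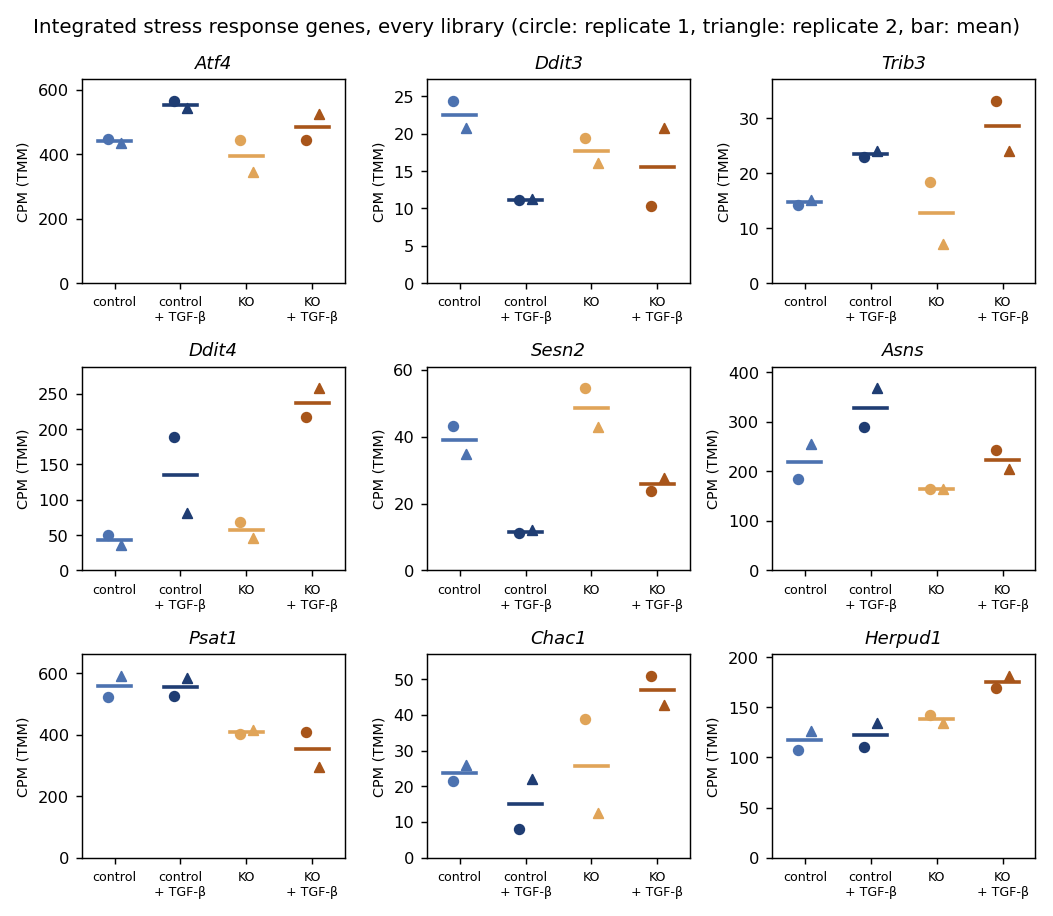
Level of each of the 9 genes in every library (CPM, each panel with its own linear axis from 0), with a circle for replicate 1, a triangle for replicate 2 and a bar at the group mean. *Sesn2* is lowest in the treated control libraries (11.1 and 12.1 CPM) and *Ddit4* is highest in the treated KO libraries (217 and 258 CPM), while *Atf4* stays between 345 and 564 CPM.

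Of the 9 genes, 5 were called in no comparison, *Atf4*, *Ddit3*, *Trib3*, *Asns* and *Chac1*. TGF-β raised *Ddit4* and lowered *Sesn2* in both genotypes, and these were the only members called for the TGF-β response, 2 of 9 in each genotype, beside 9.16% of all tested genes called in control (4.69% higher, 4.47% lower) and 6.82% in KO cells (4.25% higher, 2.57% lower). DESeq2 called 4 members in control and 3 in KO cells, beside 11.3% and 9.53% of all genes. Between genotypes before TGF-β, 0 of 9 members were called by edgeR, DESeq2 or limma-voom. Of all genes, edgeR called 1.83% there (1.03% higher, 0.798% lower) and DESeq2 3.29%. An unadjusted p below 0.05 was found by edgeR for 1 member (*Psat1*), beside 1936 of 13028 genes. The same count was 4 members with TGF-β in control, 5 in KO and 6 between treated genotypes, beside 3491, 2956 and 4086 genes. After TGF-β, *Sesn2* and *Herpud1* were higher and *Psat1* lower in KO than in control cells, 3 of 9 beside 15.0% of all genes (8.47% higher, 6.57% lower), and DESeq2 called 4 members beside 16.7%. The median log2 difference of the 9 members was -0.161 between untreated genotypes, 0.063 with TGF-β in control, 0.346 with TGF-β in KO and 0.475 between treated genotypes, against 0.0182, 0.0156, 0 and -0.0115 for all genes. Fold changes were compared between genotypes by the interaction of genotype and TGF-β. It called 0 of 9 members and 0 of 13028 genes by edgeR, with 1 member and 1134 genes at an unadjusted p below 0.05, while DESeq2 called 25 genes (0.192%) and no member, and limma-voom called none. The comparisons share libraries with each other and are not independent.

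**Figure D2:**
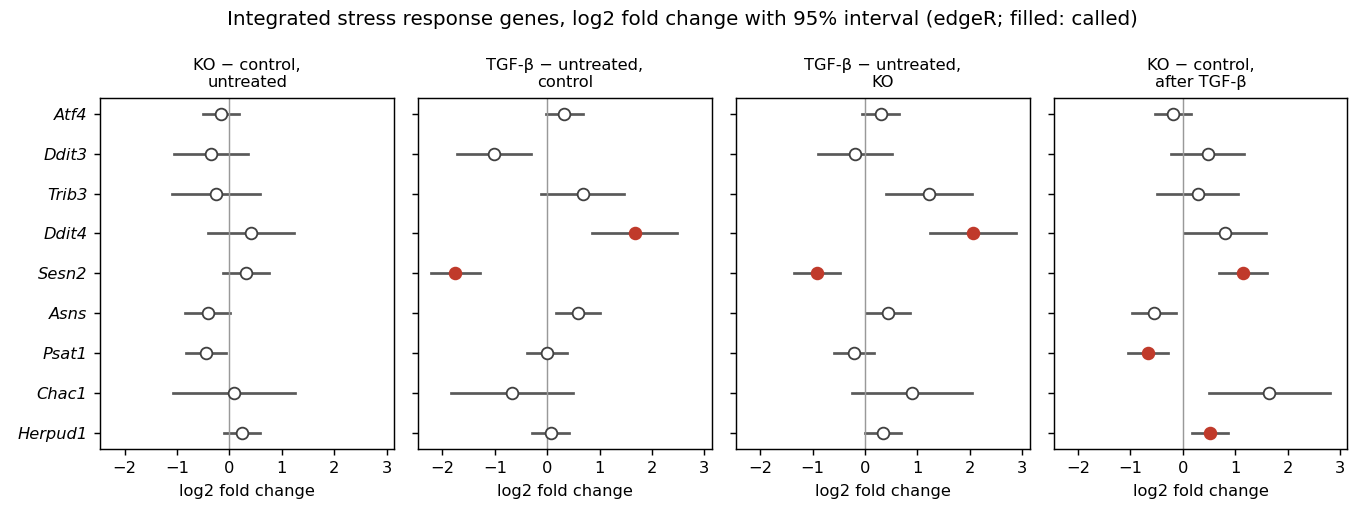
Log2 fold change of each of the 9 genes in the 4 comparisons, with 95% intervals from the edgeR fit as bars and called genes as filled points. *Sesn2* and *Ddit4* lie on opposite sides of 0 in both TGF-β comparisons, and the interval of *Atf4* includes 0 in all 4 comparisons.

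*Atf4*, the factor at the head of the response, passed the test in no comparison. Its level was 448 and 433 CPM in untreated control, 564 and 543 in treated control, 443 and 345 in untreated KO and 445 and 524 in treated KO libraries. The treated libraries were above the untreated ones in both genotypes. The log2 rise with TGF-β was 0.33 ± 0.15 (SE, adjusted p = 0.205) in control and 0.30 ± 0.15 (adjusted p = 0.289) in KO cells and did not pass the test. Between genotypes, *Atf4* differed by -0.16 ± 0.15 before (adjusted p = 0.674) and -0.19 ± 0.15 after TGF-β (adjusted p = 0.429), and its fold change with TGF-β differed between genotypes by -0.03 (adjusted p = 0.986). The *Atf4* gene lies on the plus strand of chr15:80085614-80087970 (NCBIM37, as all gene positions below).

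*Ddit3* (chr10:126727830-126733344) encodes CHOP, the factor that acts downstream of ATF4 in prolonged stress. It stood at 24.4 and 20.8 CPM in untreated control, 11.2 and 11.2 in treated control, 19.4 and 16.1 in untreated KO and 10.3 and 20.8 in treated KO libraries. Both treated control libraries were below both untreated ones, and the treated KO libraries spanned the untreated KO levels. The log2 difference with TGF-β in control cells was -1.01 ± 0.31 (adjusted p = 0.0772) and in KO cells -0.18 ± 0.31 (adjusted p = 0.786). The difference in control cells was called in 5 of 17 alternatives, DESeq2 among them (adjusted p = 0.0346). *Ddit3* shares 68 bases (4.0% of its exon length) with an exon of *Mars* on the opposite strand, and *Mars* was measured at 113 to 198 CPM. Because it is not known whether counting used strand, reads of *Ddit3* and *Mars* in these bases cannot be told apart.

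*Trib3* (chr2:152163158-152169768, minus strand) encodes a pseudokinase that is induced by ATF4 and CHOP and feeds back on them. Its level was 14.2 and 15.1 CPM in untreated control and 22.9 and 24.0 in treated control libraries. In KO cells it was 18.3 and 7.04 CPM before and 33.1 and 24.1 CPM after TGF-β. The treated libraries were the higher ones in both genotypes, and the untreated KO replicates lay far apart. The log2 difference with TGF-β was 0.67 ± 0.36 (adjusted p = 0.256) in control and 1.22 ± 0.37 (adjusted p = 0.0832) in KO cells and did not pass the test in either. The value in KO cells depended on the untreated KO libraries: without replicate 1 it was 2.02 (adjusted p = 0.0339) and without replicate 2 it was 0.65 (adjusted p = 0.324). DESeq2 (adjusted p = 0.0152), limma-voom (adjusted p = 0.0498) and the fit without the filter on low counts also called *Trib3* there. With 53 to 406 counts in a library, *Trib3* reached the lowest count of the 9 genes.

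*Ddit4* and *Sesn2*, both inhibitors of mTORC1, moved in opposite directions after TGF-β. *Ddit4* (chr10:59412423-59414518, minus strand), also known as REDD1, stood at 49.6 and 35.8 CPM in untreated control libraries and at 189 and 81.8 after TGF-β. In KO cells it rose from 69.0 and 45.2 to 217 and 258 CPM. All treated libraries were above all untreated ones, and the treated control replicates differed from each other more than any other pair of this gene. The rise was 3.18-fold in control (log2 1.67 ± 0.36 SE, adjusted p = 0.0250) and 4.18-fold in KO cells (log2 2.06 ± 0.37, adjusted p = 0.0117). In control cells the call rested on single libraries: without treated control replicate 1 the log2 rise was 0.92 (adjusted p = 0.0523), and without untreated control replicate 1 or 2 the adjusted p was 0.121 or 0.154. In KO cells it was lost without untreated KO replicate 1 (adjusted p = 0.0656) or 2 (adjusted p = 0.133). Between treated genotypes *Ddit4* differed by 0.81 ± 0.35 (adjusted p = 0.150), and by 1.55 (adjusted p = 0.00807) or 0.33 (adjusted p = 0.472) without treated control replicate 1 or 2.

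*Sesn2* (chr4:132047947-132066416, minus strand) encodes Sestrin 2, a leucine sensor. It fell from 43.1 and 34.8 CPM to 11.1 and 12.1 CPM with TGF-β in control cells, and from 54.5 and 42.9 to 23.9 and 27.7 CPM in KO cells. The untreated libraries of the genotypes overlapped, whereas every treated KO library was above every treated control library. TGF-β lowered *Sesn2* to 0.297 times its level in control cells (log2 -1.75 ± 0.20, adjusted p = 0.00175) and to 0.531 times in KO cells (log2 -0.91 ± 0.20, adjusted p = 0.0252). The fall in control cells was called under each of 17 alternatives, with adjusted p from 2.95e-11 to 0.0237. The fall in KO cells was lost when any 1 of its own 4 libraries was left out, with adjusted p from 0.0813 to 0.189. After TGF-β, *Sesn2* was 2.23-fold higher in KO than in control cells (log2 1.16 ± 0.20, adjusted p = 0.00776), a call lost without treated KO replicate 2 (adjusted p = 0.0506). The difference between the TGF-β responses of the genotypes was 0.84 on the log2 scale (95% interval 0.21 to 1.47) and did not pass the adjusted test (adjusted p = 0.498), so that a weaker fall of *Sesn2* in KO cells was not shown.

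*Asns* and *Psat1* encode enzymes of amino acid synthesis, asparagine synthetase and a transaminase of the serine pathway. *Asns* (chr6:7625169-7643254, minus strand) stood at 185 and 255 CPM in untreated control, 290.1 and 368 in treated control, 165 and 165 in untreated KO and 244 and 204 in treated KO libraries. The KO libraries were below the control libraries both before and after TGF-β, and the treated ones above the untreated ones in each genotype. None of these *Asns* differences passed the test. The log2 differences were 0.58 ± 0.19 with TGF-β in control (adjusted p = 0.0864) and 0.44 ± 0.19 in KO cells (adjusted p = 0.207), and KO minus control was -0.41 ± 0.19 before (adjusted p = 0.352) and -0.55 ± 0.19 after TGF-β (adjusted p = 0.0766). Of 17 alternatives, 3 called *Asns* with TGF-β in control cells and 3 between treated genotypes, with adjusted p of 0.0474 and 0.0473 by DESeq2. Without untreated control replicate 1 the log2 difference with TGF-β was 0.37 (adjusted p = 0.448).

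*Psat1* (chr19:15979168-16021827, minus strand) showed no detectable difference with TGF-β in control cells, where it was at 524 and 592 CPM before and 527 and 584 CPM after (log2 difference -0.0064 ± 0.17, 95% interval -0.39 to 0.37). In KO cells it stood at 401 and 414 CPM before and 410.1 and 295 CPM after TGF-β. Every KO library was below every control library. After TGF-β, *Psat1* was 0.635 times as high in KO as in control cells (log2 -0.66 ± 0.17, adjusted p = 0.0312), and this call was lost in 8 of 17 alternatives, with the highest adjusted p without treated KO replicate 2 (log2 -0.42, adjusted p = 0.221). Before TGF-β the difference was -0.45 ± 0.17 (adjusted p = 0.247). A pseudogene, *Gm3329*, is annotated inside *Psat1* on the opposite strand and shares no exon base with it.

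For *Chac1* and *Herpud1* the treated KO libraries were the highest of all. *Chac1* (chr2:119176965-119180117), a glutathione-degrading enzyme, stood at 21.5 and 26 CPM in untreated control, 7.97 and 21.9 in treated control, 38.8 and 12.6 in untreated KO and 50.9 and 42.7 in treated KO libraries. The replicates of the treated control and of the untreated KO lay far apart. After TGF-β the KO minus control log2 difference of *Chac1* was 1.65 ± 0.51 (adjusted p = 0.0575), outside the threshold, and it was 0.0283 with limma-voom but 0.106 with DESeq2. The value depended on single libraries. Without treated control replicate 2 the log2 difference was 2.56 (adjusted p = 0.0230), without treated control replicate 1 it was 1.11 (adjusted p = 0.129), and without treated KO replicate 1 or 2 the adjusted p was 0.13 or 0.121.

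*Herpud1* (chr8:96910338-96919277) encodes an ER membrane protein of the degradation of misfolded proteins. It stood at 107 and 127 CPM in untreated control, 111 and 134 in treated control, 142 and 134 in untreated KO and 169 and 182 in treated KO libraries. Before TGF-β, both KO libraries were above both control libraries. After TGF-β, *Herpud1* was 1.43-fold higher in KO than in control cells (log2 0.52 ± 0.15, adjusted p = 0.0490), a value at the edge of both thresholds that was lost in 11 of 17 alternatives. The differences with TGF-β, of 0.06 ± 0.15 in control (adjusted p = 0.830) and 0.35 ± 0.15 in KO cells (adjusted p = 0.220), did not pass the test.

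With 2 libraries a group, groups without overlap were common among all genes. Between untreated genotypes 1 member was higher in KO and 3 lower without overlap, beside 26.8% and 25.2% of all genes. With TGF-β, 4 members were higher in both treated libraries than in both untreated ones in control cells (27.4% of all genes) and 6 in KO cells (28.4%), and 2 and 1 members were lower (26.3% and 28.3%). Between treated genotypes 5 members were higher in KO and 3 lower without overlap, beside 28.4% and 27.4% of all genes.

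The wider pathway was read from 7 lists of 83 further genes, 79 of which were tested. *Aldh1l2*, *Slc7a3*, *Fgf21* and *Derl3* did not pass the filter on low counts. With TGF-β, 5 list genes rose and 4 fell in control cells (2 and 7 with library totals, 3 and 6 with upper quartile factors in place of TMM), and 6 rose and 1 fell in KO cells. Between genotypes 1 list gene was called before TGF-β, lower in KO, and 5 were higher and 4 lower in KO after TGF-β. The called share of the 79 list genes was 11.4% with TGF-β in control and 8.86% in KO cells, and 1.27% before and 11.4% after TGF-β between genotypes, beside 9.16%, 6.82%, 1.83% and 15.0% of all genes. Of these 26 calls, 5 were kept when any 1 of the 8 libraries was left out, those of *Gdf15* with TGF-β in KO cells and of *Cth*, *Slc6a9*, *Slc1a4* and *Syvn1* between treated genotypes, and the other 21 were lost without at least 1 library. The interaction called 0 of the 79 by edgeR and limma-voom and 1 by DESeq2, with 8 at an unadjusted p below 0.05.

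None of the 4 eIF2α kinases was called in any comparison, a count too small to set against the 1.83 to 15.0% of all genes called. *Eif2ak3*, which encodes the ER stress sensor PERK, was at 56.9 and 49.8 CPM in untreated and 74.0 and 83.4 CPM in treated control libraries, with a log2 difference of 0.56 (adjusted p = 0.0609). *Eif2ak1*, *Eif2ak2* and *Eif2ak4*, which encode the kinases HRI, PKR and GCN2, ranged from 28 to 71.5 CPM over all 8 libraries. *Ppp1r15a* encodes GADD34, which directs the phosphatase that resets eIF2α. It stood at 21.5 and 19.2 CPM in untreated and 14.2 and 15.2 in treated control libraries, and at 15.7 and 13.4 before and 13.5 and 25.7 CPM after TGF-β in KO libraries. The treated and untreated KO libraries of *Ppp1r15a* overlapped, and none of its differences was called. Among the subunits of eIF2 and eIF2B and the phosphatase genes, 1 of 10 was called, *Eif2s1*, the gene of eIF2α itself, which rose with TGF-β in control cells by 0.56 on the log2 scale (adjusted p = 0.0400), beside 9.16% of all genes called in that comparison.

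Of the 9 list genes called between treated genotypes, 4 were amino acid transporters. After TGF-β, 4 of 8 tested transporters were called higher in KO than in control cells and none was called lower, beside 8.47% and 6.57% of all genes. The list was chosen with earlier results of these data known, so these shares are a description and not an independent comparison. *Slc7a11* and *Slc1a5*, the latter named after its values were seen, lay below control without overlap and were not called. The median log2 difference of the 8 was 0.669 against -0.0115 for all genes. *Slc6a9*, a glycine transporter, stood at 36.4 and 30.8 CPM in untreated control, 15.3 and 15.4 in treated control, 37.0 and 30.8 in untreated KO and 38.3 and 37.4 in treated KO libraries. It fell with TGF-β in control cells (log2 -1.13 ± 0.18, adjusted p = 0.00675) and was higher in treated KO than in treated control cells (log2 1.30 ± 0.18, adjusted p = 0.00303). *Slc1a4*, a carrier of alanine, serine and cysteine, was at 54.0 and 58.6 CPM in untreated control, 32.1 and 41.1 in treated control, 84.9 and 77.2 in untreated KO and 69.4 and 70.9 in treated KO libraries. As with *Slc6a9*, the treated control libraries were the lowest of all. *Slc1a4* fell with TGF-β in control cells (log2 -0.62 ± 0.16, adjusted p = 0.0456), a call that 7 of the 8 fits without a single library lost. The *Slc1a4* difference between treated genotypes was 0.94 ± 0.16 (adjusted p = 0.00748). *Slc7a1*, a carrier of cationic amino acids, and *Slc7a5*, the light chain of the leucine carrier LAT1, were higher in treated KO cells as well, by 1.05 ± 0.22 (adjusted p = 0.0156) and 0.86 ± 0.21 (adjusted p = 0.0243). Their calls were lost in 2 and 4 of 17 alternatives.

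**Figure D3:**
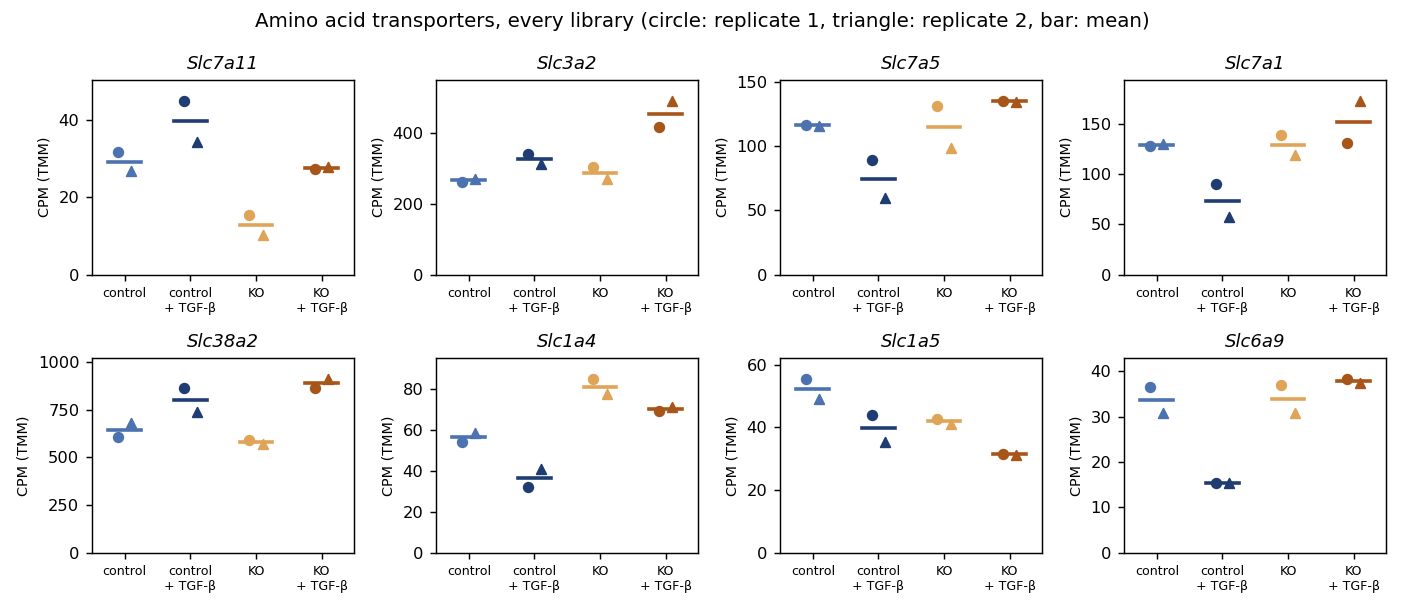
Level of the 8 tested amino acid transporter genes in every library (CPM, each panel with its own linear axis from 0), with a circle for replicate 1, a triangle for replicate 2 and a bar at the group mean. *Slc6a9* is at 15.3 and 15.4 CPM in the treated control libraries and between 30.8 and 38.3 CPM in all others.

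Other transporters were called for the TGF-β response in KO cells, where *Slc7a11*, *Slc3a2* and *Slc38a2* rose and none was called as falling (3 and 0 of 8, beside 4.25% and 2.57% of all genes). In control cells the same 3 were also higher without overlap, by at most 0.44 on the log2 scale, and were not called. The other 5 were lower there without overlap (27.4% and 26.3% of all genes were higher and lower). The interaction called 0 of the 8. *Slc1a4* and *Slc1a5* were lower in both treated KO libraries than in both untreated ones without passing the test. *Slc3a2*, the heavy chain that LAT1 and the cystine carrier share, rose from 304 and 268 to 415 and 490.3 CPM (log2 0.66 ± 0.14, adjusted p = 0.0250). *Slc38a2*, a carrier of neutral amino acids, rose by 0.61 ± 0.13 (adjusted p = 0.0276). *Slc7a11*, the light chain of the cystine carrier, stood at 31.7 and 26.9 CPM in untreated control, 45.1 and 34.4 in treated control, 15.4 and 10.4 in untreated KO and 27.3 and 27.7 in treated KO libraries. *Slc7a11* was lower in untreated KO than in untreated control cells (log2 -1.20 ± 0.24, adjusted p = 0.0417) and rose with TGF-β in KO cells (log2 1.11 ± 0.24, adjusted p = 0.0251). Of 17 alternatives, 7 lost the first of these calls, limma-voom among them, and 4 lost the second. The rises of *Slc3a2* and *Slc38a2* in KO cells were not called in 4 and 5 of the 17.

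Among genes of amino acid and one-carbon synthesis, 1 of 10 was called, *Cth*, which encodes the cystathionine lyase that makes cysteine, in the comparison of treated genotypes with 15.0% of all genes called. It was at 11.1 and 10.6 CPM in untreated control, 19.9 and 22.8 in treated control, 3.09 and 6.11 in untreated KO and 5.62 and 5.01 in treated KO libraries. All KO libraries of *Cth* were below all control libraries, and the log2 difference after TGF-β was -2.0 ± 0.30 (adjusted p = 0.00408). *Slc7a11* and *Cth* lie on chromosome 3, where the median log2 difference of 641 tested genes between KO and control was -0.345 before and -0.336 after TGF-β. The part of this shift in the values of both genes was not tested, and none of the 9 members lies on that chromosome. The 11 tRNA synthetase genes that respond to ATF4 had no call in any comparison, beside 1.83 to 15.0% of all genes called in the 4 comparisons, and medians of 0.109 and 0.155 with TGF-β in control and KO cells. Between treated genotypes their median was -0.164 and their lowest adjusted p 0.0621. There 6 of the 11 had an unadjusted p below 0.05, beside 4086 of 13028 genes. Without overlap, 3 were higher and 5 lower in KO, beside 28.4% and 27.4% of all genes.

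Partners and signalling targets of ATF4 gave calls in both directions. *Gdf15*, a stress-induced cytokine, fell in control cells from 8.44 and 6.96 to 0.937 and 1.38 CPM (log2 -2.73 ± 0.40, adjusted p = 0.00466) and in KO cells from 13.9 and 18.2 to 1.55 and 0.874 CPM (log2 -3.72 ± 0.39, adjusted p = 0.00101). Its fall went with that of *Sesn2* in direction in both genotypes. *Jdp2*, a bZIP repressor, rose in control cells (log2 1.10 ± 0.27, adjusted p = 0.0343), and *Vegfa*, the vascular growth factor, rose in KO cells (log2 1.92 ± 0.41, adjusted p = 0.0240). In control cells both treated libraries of *Vegfa* were also above both untreated ones, without a call. Without treated control replicate 1 the rise of *Jdp2* was 0.69 (adjusted p = 0.0995), and without treated KO replicate 2 that of *Vegfa* was 1.07 (adjusted p = 0.0834). *Pmaip1*, which encodes the apoptosis inducer NOXA, was lower in treated KO than in treated control cells (log2 -1.08 ± 0.22, adjusted p = 0.0129).

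The ATF6 and XBP1 branches of the unfolded protein response act beside ATF4 and share *Herpud1* with it. *Xbp1* rose from 67.4 and 71.3 to 132 and 138 CPM with TGF-β in control cells (log2 0.96 ± 0.17, adjusted p = 0.0109) and from 60.2 and 76.2 to 125 and 156 CPM in KO cells (log2 1.04 ± 0.17, adjusted p = 0.00825). These libraries do not separate spliced from unspliced *Xbp1* RNA in the count table. In control cells *Hspa5*, the ER chaperone BiP, rose by 0.74 ± 0.20 (adjusted p = 0.0486) and *Manf*, an ER-resident secreted factor, by 0.61 ± 0.15 (adjusted p = 0.0378), while *Syvn1*, the ubiquitin ligase HRD1, fell by 0.91 on the log2 scale (adjusted p = 0.0423). In KO cells *Ern1*, the sensor IRE1 that splices *Xbp1*, rose by 0.75 ± 0.18 (adjusted p = 0.0363). Between treated genotypes *Syvn1* was higher in KO cells (log2 1.32 ± 0.23, adjusted p = 0.00776), and *Manf* (log2 -0.64 ± 0.15, adjusted p = 0.0228) and *Edem1*, a lectin of ER-associated degradation (log2 -0.53 ± 0.13, adjusted p = 0.0295), were lower. *Syvn1* had the direction of *Herpud1*, its partner in that degradation complex, in this comparison. Of 17 alternatives, 10 lost the call of *Hspa5*, 9 that of *Edem1* and 8 that of *Ern1*. The call of *Syvn1* was lost in 9 with TGF-β in control and in 1 between treated genotypes. That of *Manf* was lost in 8 and 5 in the same order. The calls of *Xbp1* were lost in 2 (control) and 1 (KO).

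**Figure D4:**
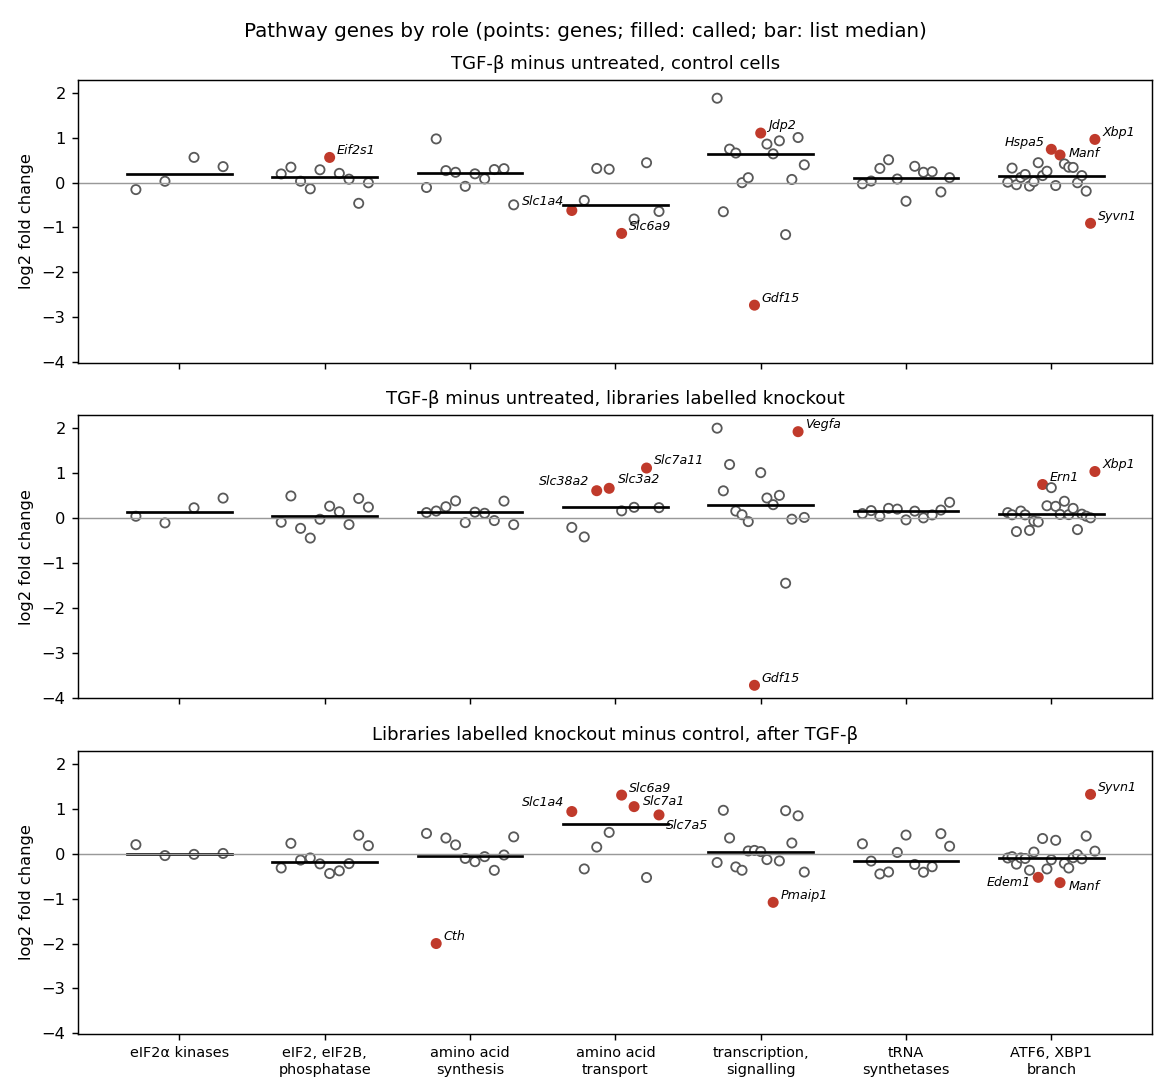
Log2 fold changes (vertical axis) of the tested genes of the 7 pathway lists in the 3 comparisons with TGF-β, a point per gene, with called genes filled and named and a bar at the median of each list. The bar of the amino acid transporters stands at -0.51 with TGF-β in control cells and at 0.669 between treated genotypes, and no gene of the kinase and tRNA synthetase lists is filled.

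The pattern of each member over the 8 libraries was compared with those of 10632 genes with a mean of at least 5 CPM, by the mean absolute difference of log2 CPM after centring each gene. This is a description over 4 groups. The nearest genes to *Atf4* were *Isca2* (0.0447), *Iws1* (0.0511) and *Katna1* (0.0594), against a median of 0.295 for all genes. *Trib3* was nearest to *Rnf11* (0.196), *Gna13* (0.217) and *Lonrf1* (0.228), and *Ddit3* to *Tbcel* (0.146), *Sphk2* (0.149) and *Arap1* (0.168). No member had another member, or a gene of the pathway lists, among its 3 nearest genes. The nearest member to *Atf4* was *Asns*, at rank 3766 of the compared genes, and the nearest to *Trib3* was *Atf4*, at rank 375.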

How the data were processed

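RNA-seq counts of 8 NMuMG libraries were analysed, 2 biological replicates in each of 4 groups taken from the sample titles. The authors deposited whole-number counts per gene in a single table. The paper's methods give alignment with subjunc to mm10 and mm9, removal of duplicates and DESeq2, whereas the submitters' processing notes list HISAT2, limma and mm10. The library kit and read layout also differ between paper and labels, and how reads were counted, strand included, is not given in the sources used here. The gene identifiers were those of GENCODE vM1 on NCBIM37, in the same order, and gene positions were taken from it.

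From these counts, edgeR 4.0.16 (R 4.3.3) was used with TMM factors, filterByExpr (13028 of 37310 genes kept) and glmQLFit over all 8 libraries without a block. Each contrast used glmQLFTest with Benjamini-Hochberg adjustment over all tested genes, and for the interaction no fold threshold was set. The SE is the absolute log2 fold change divided by the square root of F. Residual degrees of freedom were 4, prior ones 5.5, and the biological coefficient of variation 0.18. A level of 3 counts corresponded to 0.238 to 0.661 CPM, which covers counting error only. DESeq2 1.42.0, limma 3.58.1 (voom), other scalings and filters, a replicate block, fits of 4 libraries and fits without each library were alternatives. Members and lists were chosen with earlier results of these data known. All members are named, and of each list up to 4 called genes per comparison in order of p, the kinases and *Ppp1r15a*.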

Additional observations from a re-analysis of the deposited data

How the results depend on the processing

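The calls of the 9 members depended on the fit. The number of all genes called moved with the fit as well, and is given below for each comparison. Between treated genotypes it was 1959, and 2823 without the filter on low counts. Of the members, 2 were called with TGF-β in control cells, but 4 with DESeq2, 5 without the filter on low counts and 1 in the fit of its own 4 libraries (1 to 3 without single libraries). DESeq2 added *Ddit3* and *Asns* there, and the fit of 4 libraries lost *Ddit4* (adjusted p = 0.0527). With TGF-β in KO cells 2 were called, 5 without the filter, and 0 to 2 without single libraries. Between treated genotypes 3 were called, 6 without the filter, 0 in its own 4 libraries and 0 to 4 without single libraries. The interaction called 1 member, *Chac1* (log2 1.65, adjusted p = 4.76e-04), without the filter and 0 to 0 without single libraries. Between untreated genotypes no alternative called a member (0 to 0 without single libraries).

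Replicates share only a number, and same-numbered libraries deviated from their group means with correlations of 0.098 (untreated), 0.297 (TGF-β, control), -0.00915 (TGF-β, KO) and -0.473 (treated genotypes). A replicate block called 0, 2, 2, 1 and 0 members in the untreated, TGF-β control, TGF-β KO, treated and interaction comparisons, and 1, 5, 7, 9 and 0 list genes. With the numbers of the treated KO libraries exchanged, a choice made after seeing the data, the block called 4 members and 18 list genes with TGF-β in control and 6 members between treated genotypes. Over all genes it called 1954 and 2809 in these comparisons.

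Of the list genes, 1 was called between untreated genotypes, 0 with limma-voom, 2 without the filter and 2 in its own 4 libraries (0 to 1 without single libraries). With TGF-β in control cells 9 were called, 15 with DESeq2, 19 without the filter and 4 in its own libraries (0 to 13). With TGF-β in KO cells 7 were called, 4 with library totals and 11 without the filter (1 to 10). Between treated genotypes 9 were called and 2 in its own libraries (5 to 16). The interaction called 1 with DESeq2 and 4 without the filter (0 to 0).

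Over all genes, 238 were called between untreated genotypes (428 with DESeq2, 137 with limma-voom, 756 without the filter, 150 with the replicate block, 804 in its own libraries, 540 with the exchanged block). With TGF-β, 1194 were called in control (2021 without the filter, 470 in its own libraries, 1954 with the exchanged block) and 889 in KO (1832 without the filter, 1550 with the exchanged block). Between treated genotypes 1959 were called (2823 without the filter, 410 in its own libraries, 2809 with the exchanged block). Leaving out single libraries gave 42 to 390, 145 to 1484, 136 to 1381 and 477 to 2762 genes in the same order. The lowest counts came without untreated control replicate 2, untreated control replicate 1, untreated KO replicate 1 and treated KO replicate 2. The interaction called 0 genes, 25 with DESeq2, 211 without the filter, 5 with the exchanged block and 0 to 6 without single libraries. Library totals in place of TMM lowered the median of all genes by -0.142 (control) and -0.155 (KO) on the log2 scale with TGF-β, and turned the split of higher and lower calls from 611 and 583 to 397 and 1019 in control and from 554 and 335 to 388 and 613 in KO cells. With upper quartile factors the splits were 504 and 722, and 442 and 474.

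Uncalled values changed sign in some fits. With limma-voom *Chac1* between untreated genotypes was -0.24. With library totals *Herpud1* and *Eif2ak2* with TGF-β in control were -0.078 and -0.11, and *Eif2ak1* in KO -0.12. With upper quartile factors *Eif2ak2* in control was -0.028 and *Eif2ak1* in KO -0.0504, and without the filter the interaction of *Atf4* was 0.038. Without single libraries, the log2 ranges that crossed 0 were -0.35 to 0.0042 (*Atf4*), -0.91 to 0.70 (*Chac1*) and -1.06 to 0.31 (*Trib3*) between untreated genotypes, -0.082 to 0.19 (*Herpud1*), -0.094 to 0.088 (*Psat1*), -0.38 to 0.023 (*Eif2ak1*) and -0.20 to 0.21 (*Eif2ak2*) with TGF-β in control, -0.75 to 0.26 (*Ddit3*), -0.44 to 0.038 (*Psat1*), -0.086 to 0.19 (*Eif2ak1*), -0.29 to 0.10 (*Eif2ak2*) and -0.067 to 0.85 (*Ppp1r15a*) in KO, and -0.11 to 0.90 (*Ddit3*) between treated genotypes. For the interaction they were -0.39 to 0.08 (*Asns*), -0.19 to 0.16 (*Atf4*), -0.059 to 1.17 (*Ddit4*), -0.43 to 0.053 (*Psat1*) and -0.022 to 1.35 (*Trib3*). The cause of these changes was not tested.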

Other observations

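*Ddit4*, the member that rose most with TGF-β, was nearest in pattern over the 8 libraries to *Pim1* (mean absolute difference of centred log2 CPM 0.213), *Smad7* (0.214) and *Junb* (0.233), against a median of 0.971 over the compared genes. *Smad7* encodes the inhibitory SMAD that TGF-β induces as feedback, and *Junb* an AP-1 factor. These 3 genes were named after their values were seen. The nearest member to *Ddit4* was *Trib3*, at rank 454. *Atf3*, a bZIP partner of ATF4, was at 15.6 and 15.6 CPM in untreated control, 77.8 and 36.7 in treated control, 10.6 and 14.1 in untreated KO and 19.7 and 80.3 in treated KO libraries, and was not called with TGF-β in either genotype. All treated libraries of *Atf3* were above all untreated ones, and the treated replicates lay far apart in both genotypes. *Atf3* was also chosen after its values were seen.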
